A study of Danio rerio with 40 samples.

Results

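Zebrafish males of the Low-first line gave sperm after a first period of low sperm competition (Low1) and again after a following period of high sperm competition (High2). The libraries compared are all those whose title places them in this line, by the prefix La for Low1 and Lb for High2. They are 20 of the 39 libraries of the miRNA table (10 High2 and 10 Low1) and 12 of the 24 libraries of the piRNA cluster table (6 High2 and 6 Low1). All males were adult wild-type fish of the AB strain. A Low male was kept with females and no rival, and a High male was kept with a rival male and a single female. Males of the High-first line met the same treatments in the reverse order and gave the High1 and Low2 libraries. By title, every High2 library came from the second period and every Low1 library from the first, so treatment and period cannot be told apart within this line. The same males were sampled in both periods, so High2 and Low1 libraries are not all independent animals. Nothing says that the number in a title names the male, and the main fit did not pair libraries.

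MiRNAs are short RNAs that pair through their seed with target mRNAs and lower the stability or translation of those mRNAs. PiRNAs are germ line small RNAs that are bound by Piwi proteins and guide the silencing of transposable elements. They are cut from long transcripts of genomic clusters, some read from a single strand and some from both, and many zebrafish clusters lie on the long arm of chromosome 4.

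Deposited values were log2 of normalised reads plus 4. Total miRNA reads ran from 948655 to 6071817 in High2 and from 79435 to 8447142 in Low1, and the mean of their log2 was 0.59 higher in High2 (two-sided permutation test, p = 0.454). Low1 libraries 1 and 3 were shallow, with 79435 and 166612 miRNA reads. A count of 0 (which allows up to 3 reads) stood for up to 110.4 and 33.1 normalised reads in them, and they detected 176 and 212 miRNAs against 275 to 320 in High2. Total piRNA cluster reads ran from 23530143 to 44501520 in High2 and from 26806298 to 42483801 in Low1, a mean log2 difference of 0.07 (two-sided exact permutation test, p = 0.671). Reads carried no molecular identifiers, so these depths and floors cover counting error only. The groups rest on the title prefix, and the public treatment field differs from it. Of the 10 High2 miRNA libraries it reads Low2 in 7, Low1 in 2 and High2 in 1, and of the 10 Low1 libraries it reads Low1 in 6, Low2 in 2, High1 in 1 and High2 in 1. Of the 6 High2 piRNA libraries it reads Low2 in 5 and Low1 in 1, and of the 6 Low1 libraries Low1 in 4, Low2 in 1 and High1 in 1. An alternative kept only libraries whose field gives the line and period of the prefix, read as Low1 for La, Low2 for Lb, High1 for Ha and High2 for Hb. Every Lb library it keeps is thus publicly labelled Low2, and the labels do not settle whether that word names the line or the treatment.

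No miRNA separated High2 from Low1 after adjustment. In the limma fit over all 4 groups, 0 of 346 miRNAs (0%) passed a Benjamini-Hochberg adjusted p of 0.05, and the smallest adjusted p was 0.817. Before adjustment 20 miRNAs (5.78%) passed 0.05, of which 16 (4.62%) had higher and 4 (1.16%) had lower means in High2. On the recovered reads, limma-voom called 0 miRNAs, with 12 passing 0.05 before adjustment and only 3 of these higher in High2. A negative binomial model called 0, with 26 passing before adjustment, 15 of them higher. In no miRNA (0 of 346, 0%) did the 10 High2 values lie wholly above or wholly below the 10 Low1 values. The median difference over all miRNAs, High2 minus Low1, was 0.04 in log2, with a median standard error of 0.29. Without the shallow Low1 libraries 1 and 3, a choice made after seeing the data, the median difference was 0.0025. In bulk sperm RNA, fewer cells holding a small RNA and less of it per cell cannot be told apart. The miRNAs described next had the smallest unadjusted p in each direction, and none passed adjustment.

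The smallest p belonged to dre-miR-34c-3p. In mammals miR-34c is abundant in meiotic and post-meiotic male germ cells. Its lowest, median and highest normalised reads were 15.5, 29.4 and 53.2 in the 10 High2 libraries and 0, 14.8 and 26.4 in the 10 Low1 libraries. All 10 High2 libraries lay above the Low1 median, and 8 lay above every Low1 library. The log2 difference was 1.19 (standard error 0.37, limma unadjusted p = 0.00297, adjusted p = 0.817). Both shallow Low1 libraries were at 0 reads, and their floors of 110.4 and 33.1 normalised reads exceed the highest Low1 value. Without them the difference was 0.72 (limma unadjusted p = 0.0357). Of the 4 entries of the miR-34 family 3 had higher and 1 had lower means in High2, with a median log2 difference of 0.05. Only 1 entry of the family passed 0.05 before adjustment. The family summed to a median of 762 normalised reads in High2 and 608 in Low1, so the 3p arm was a small part of it.

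Among the other miRNAs with higher means in High2, dre-miR-20a-5p is of the miR-17-92 type, which promotes cell proliferation. Its lowest, median and highest normalised reads were 1159.6, 2108 and 4873 in High2 and 672, 1004 and 3095 in Low1. The groups overlapped, although all 10 High2 libraries exceeded the Low1 median, and the log2 difference was 0.77 (standard error 0.30, limma unadjusted p = 0.0134). Values of dre-miR-7133-3p were 9.26, 34.5 and 132.7 in High2 and 0, 19.1 and 33.0 in Low1, with 5 High2 libraries above all of Low1 and a log2 difference of 1.02. The floors of the shallow Low1 libraries, 110.4 and 33.1 normalised reads, lie at or above its highest Low1 value, so the order of those 5 is not sure. Values of dre-miR-30b, of the widely expressed miR-30 family, were 92.3, 204 and 923 in High2 and 36.8, 121 and 349 in Low1, a log2 difference of 0.88. Both pairs of groups overlapped. The passenger arm of a hypoxia-induced miRNA, dre-miR-210-5p, had 109, 189 and 482 in High2 and 55.1, 127 and 173 in Low1, a log2 difference of 0.65. The other miRNAs passing 0.05 before adjustment with higher means were dre-miR-429b, dre-miR-15a-5p, dre-miR-103 and dre-miR-723-5p, with log2 differences of 0.65, 0.65, 0.54 and 0.12, besides those named below.

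Several of these differences moved with the shallow Low1 libraries. For dre-miR-23b-3p, from a locus that also carries miR-27 and miR-24, lowest, median and highest normalised reads were 21.6, 67.8 and 269 in High2 and 0, 44.9 and 134 in Low1. Its log2 difference was 1.11 with all libraries (limma unadjusted p = 0.0230) and 0.33 without Low1 libraries 1 and 3 (limma unadjusted p = 0.322). The entry dre-miR-23b went from 1.03 to 0.28, dre-miR-457b-5p from 0.83 to 0.41 and dre-miR-457a from 0.76 to 0.51. The difference of dre-miR-20a-5p went from 0.77 to 0.63, that of dre-miR-30b from 0.88 to 0.65 and that of dre-miR-210-5p from 0.65 to 0.49. Their limma unadjusted p was then 0.0529, 0.100 and 0.118. For dre-miR-7133-3p it went from 1.02 to 0.88 (limma unadjusted p = 0.0267). Leaving both libraries out was chosen after seeing the data. It gave 18 miRNAs passing 0.05 before adjustment, 14 higher and 4 lower, and 5 of the 18 were among the 20 found with all libraries. The smallest limma adjusted p was then 0.710.

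**Figure D1:**
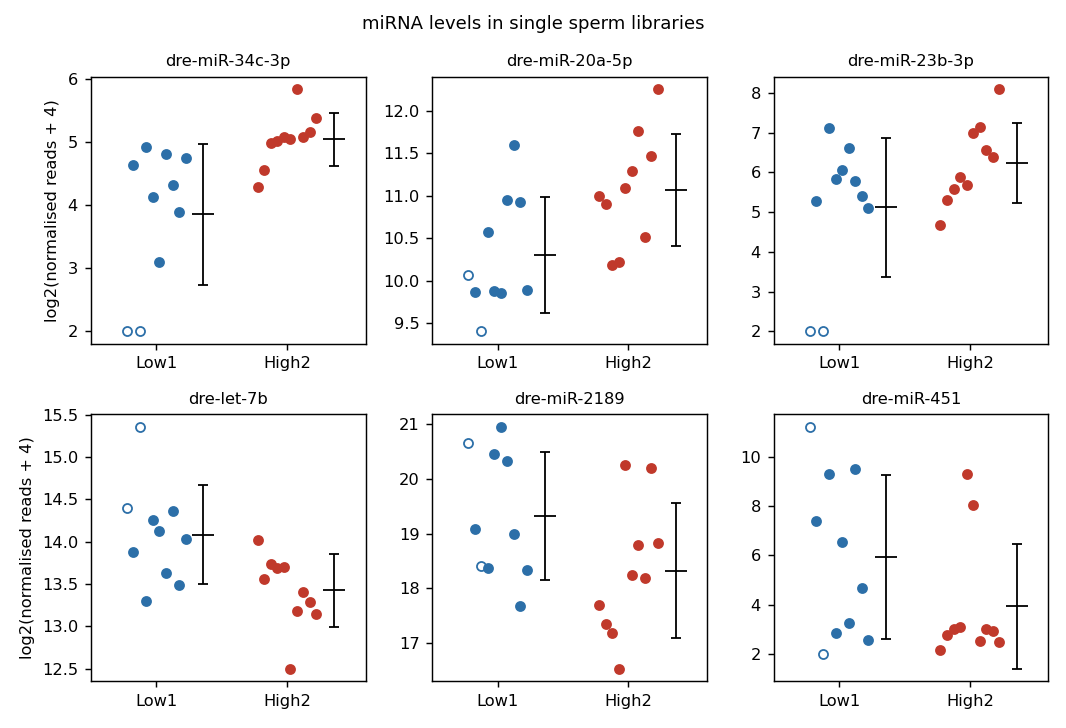
Level of 6 miRNAs in each sperm library, as log2 of normalised reads plus 4, for the 10 Low1 (blue) and 10 High2 (red) libraries, with the mean and SD of each group beside it. Open symbols mark the shallow Low1 libraries 1 and 3. The groups overlap in every panel.

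With all libraries, fewer miRNAs had lower means in High2 (140 of 346). By limma-voom the direction turned, with 3 higher and 9 lower passing 0.05 before adjustment. The let-7 family times development and is linked to differentiated cells. By limma over all groups, its member dre-let-7b had the smallest p among the 140 lower miRNAs. Its lowest, median and highest normalised reads were 5779, 11477 and 16665 in High2 and 10106, 17336 and 42048 in Low1. No High2 library exceeded the Low1 median, and 4 lay below every Low1 library. The log2 difference was -0.66 (standard error 0.25, limma unadjusted p = 0.0124, adjusted p = 0.817), and -0.46 without the shallow Low1 libraries (limma unadjusted p = 0.0741). Brain-enriched miR-153 was represented by dre-miR-153b-3p, with 534, 1938 and 4980.1 in High2 and 1234, 3687 and 6632 in Low1. The groups overlapped, and the log2 difference was -0.87 (limma unadjusted p = 0.0308), or -1.05 without the shallow libraries (limma unadjusted p = 0.0135). The third miRNA passing 0.05 before adjustment in this direction, dre-miR-181d-5p, was scarce, with at most 2.86 normalised reads in High2 and 11.0 in Low1. For dre-miR-24, of the miR-23, miR-24 and miR-27 clusters, only 1 of 10 High2 libraries lay above the Low1 median, and the log2 difference was -0.36 (limma unadjusted p = 0.0661). The 10 leading lower miRNAs also included dre-miR-2189 and dre-miR-451, described below, and dre-miR-216a, dre-miR-126b-3p, dre-miR-22b-5p and dre-let-7h, with log2 differences of -0.66, -0.36, -0.48 and -0.32 and unadjusted p between 0.0538 and 0.102.

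The most abundant miRNA of these libraries, dre-miR-2189, also had a lower mean in High2. Lowest, median and highest normalised reads were 94490.1, 304980.5 and 1242007 in High2 and 209278, 539148 and 2030375 in Low1. Of the 10 High2 libraries 3 lay below every Low1 library, and the rest overlapped with Low1. The log2 difference was -1.003 (standard error 0.49, limma unadjusted p = 0.0457). The 10 most abundant miRNAs of a library took 72.9 to 84.5% of reads in High2 and 71.4 to 88.7% in Low1. Among the abundant miRNAs, dre-let-7a had medians of 215338 and 255989 normalised reads in High2 and Low1 (log2 difference -0.16, standard error 0.19). Those of dre-miR-22a-3p were 113074 and 111236, and those of dre-miR-100-5p were 113199 and 107899. The widely expressed dre-miR-21 had medians of 68814 and 56376 (log2 difference 0.26, standard error 0.19). Apart from dre-miR-2189, the 10 miRNAs with the highest means all had an unadjusted p of 0.172 or more. The study reports dre-miR-10b-5p, which is encoded within a Hox cluster, as differentially expressed between groups it calls High2 and Low1. The study describes its High2 as High exposure in second place and, for piRNAs, its Low1 and High2 samples as from the same males. The public labels do not settle whether its High2 names the Lb or the Hb libraries. With groups by prefix, dre-miR-10b-5p had 3922, 5065 and 6924 in High2 and 3485, 5107 and 7981 in Low1, and the range of Low1 enclosed that of High2. In the 9 Hb libraries (Low2) it ran from 3487 to 139181, with a median of 5046. In the 10 High1 libraries it ran from 3739 to 61358, with a median of 7224.

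Families were described by the counts of their members, beside the 346 miRNAs as a whole, of which 140 had lower and the others higher means in High2. These counts include the shallow Low1 libraries. All 13 entries of the miR-430 family, which clears maternal mRNAs in the early zebrafish embryo, had higher means, with a median log2 difference of 0.26 and 3 passing 0.05 before adjustment. These entries hold only 5 distinct sets of values, because 9 entries of the 5p arm have the same values in every library. For dre-miR-430a-3p, High2 had 0, 30.3 and 91.0 and Low1 0, 8.88 and 95.4, a log2 difference of 1.21 (standard error 0.55). The groups overlapped fully. For dre-miR-430b-3p the medians were 33.0 and 13.9 (log2 difference 1.01), and for dre-miR-430b-5p they were 3.80 and 1.64. With identical entries counted once, the family summed to at most 249 normalised reads in High2 and 181.4 in Low1. Of the 8 miR-30 entries 7 were higher (median 0.25, 1 passing), of the 9 of the miR-15 and miR-16 family 6 (median 0.26, 1 passing), and of the 4 of the miR-29 family 4 (median 0.32, 0 passing).

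In the let-7 family 8 of 11 entries had lower means in High2 (median log2 difference -0.16), and dre-let-7b alone passed 0.05 before adjustment. The family summed to 277954 to 504289 normalised reads in High2 and 277228 to 495262 in Low1, or 12.5 to 35.8% and 12.0 to 29.0% of reads. The 4 entries of the miR-26 family were all lower (median -0.09, 0 passing). Members of the miR-17-92 type were higher in 16 of 26 cases (median 0.04), those of the miR-181 family lower in 8 of 12 (median -0.06) and those of the miR-10, miR-99 and miR-100 family lower in 8 of 13 (median -0.01).

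Markers of other cell types were present. The red blood cell list holds dre-miR-451 and both arms of dre-miR-144. Lowest, median and highest normalised reads of dre-miR-451 were 0.442, 3.78 and 638 in High2 and 0, 55.2 and 2429 in Low1, and 2 of the 10 High2 libraries lay above the Low1 median (log2 difference -2.01, standard error 1.14, limma unadjusted p = 0.0857). The arm dre-miR-144-5p had 284, 382 and 514 in High2 and 268, 336 and 694 in Low1 (log2 difference 0.02), and dre-miR-144-3p stayed at 16.0 or below. Summed red blood cell miRNAs were 0.0217 to 0.0473% of reads in High2 and 0.0108 to 0.0944% in Low1. The 6 white blood cell miRNAs summed to 141.8 to 601 normalised reads in High2 and 131 to 1095 in Low1, with their defining member dre-miR-223 at 3.60 or below. Muscle miRNAs summed to 300.0 to 763 in High2 and 221 to 1091 in Low1, epithelial miRNAs to 10649.6 to 58312 and 14023 to 61797.0, and neural miRNAs to 8666 to 22052.5 and 10339.9 to 24158. The liver miRNA dre-miR-122 had 1429.7 to 4221 normalised reads in High2 and 1406 to 7136 in Low1, and the gonad miRNA miR-202 had 983 to 17745 and 906 to 7065.0 summed over its arms. No member of these lists passed 0.05 before adjustment (0 of 32), and the part of these cell types in any difference was not tested. The epithelial list holds arms of miR-203 and miR-205 only, although miR-200 arms had been planned as epithelial markers too. Of the 10 entries of the miR-200, miR-141 and miR-429 family, 6 had higher means in High2 (median log2 difference 0.07). Of these 10, 1 passed 0.05 before adjustment, dre-miR-429b.

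The High minus Low difference was also set against that of the High-first line, High1 minus Low2. The limma interaction called 0 of 346 miRNAs (smallest adjusted p = 0.822), and 11 (3.18%) passed 0.05 before adjustment. The smallest of these p-values was that of dre-let-7b, with log2 differences of -0.66 in the Low-first and 0.48 in the High-first line (limma unadjusted p = 0.00297). For dre-miR-34c-3p they were 1.19 and -0.19 (limma unadjusted p = 0.0141), and for dre-miR-20a-5p 0.77 and -0.34 (limma unadjusted p = 0.0133). All of these miRNAs were named for a small p in High2 against Low1. The interaction uses the same High2 and Low1 values, so small p-values for them were favoured in advance. Without Low1 library 3 alone, 9 miRNAs were called, which are the identical 5p entries of the miR-430 family, such as dre-miR-430i-5p (interaction 1.12 in log2, limma adjusted p = 0.0341, against 0.822 with all libraries). Low1 library 3 held the highest value of dre-miR-430i-5p, 44.1 normalised reads, and High2 reached 10.4. In that shallow library each read stood for 11.02 normalised reads and a count of 0 for up to 33.1, so the value lay near its floor.

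For the piRNA clusters, 0 of 1434 (0%) passed a limma adjusted p of 0.05 in the fit over all 4 groups, and the smallest was 0.156. Before adjustment 202 clusters (14.1%) passed 0.05, of which 60 (4.18%) had higher and the others (9.9%) lower means in High2. On the recovered reads limma-voom called 0, with 77 higher and 146 lower passing before adjustment, and the negative binomial model called 48, 6 higher and 42 lower. The 6 High2 and 6 Low1 libraries separated without overlap in 19 clusters higher in High2 (1.32%) and 14 lower (0.976%). Where a read matched more than 1 cluster, it could add to the count of each. Coordinates are as the files give them, on the assembly the study's methods name, GRCz11, while the submitters' processing notes name GRCz10. Gene annotations were not used here.

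High2 and Low1 varied less than the groups of the other line. The median SD of a cluster in log2 was 0.22 in High2, 0.25 in Low1, 0.39 in High1 and 0.39 in Low2. Low2 libraries 2 and 3 were shallow, with 7414024 and 5983071 piRNA cluster reads, against 17047635 to 56435023 in High1. The part of depth in this spread was not tested. A limma fit on High2 and Low1 alone, an alternative to the fit above, had a median standard error of 0.14 in place of 0.20 and called 55 clusters, 22 higher (1.53%) and 33 lower (2.3%). With libraries centred, an alternative added after seeing the data, the same fit called 43, 25 higher and 18 lower, so the prevailing direction turned. The 55 held 52 distinct sets of values, and the 49 on reference chromosomes lay at 48 loci. The count rested on single libraries. It was 0 without Low1 library 5 or 10 or High2 library 7 or 9, between 1 and 4 without High2 library 10, Low1 library 4 or High2 library 8, 20 without High2 library 2 and 64 without Low1 library 9. It was 117 without Low1 library 6, 148 without High2 library 6 and 172 without Low1 library 7. Sequencing pools were uneven, with pool 4 holding 1 High2 and 3 Low1 libraries and pool 5 holding 3 and 1, and with pool as a factor in the fit over all groups 0 clusters were called and 150 passed 0.05 before adjustment. The fit over all groups called 68 clusters, 18 of them higher, without Low2 libraries 2 and 3 and High1 library 1. Leaving these out was chosen after seeing the data, and without only the Low2 pair the fit called 0.

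Clusters lower in High2 led the ranking by unadjusted p. The single-strand predicted cluster chr16:14845000-14858022, which the study also names, had lowest, median and highest normalised reads of 3350.3, 3527 and 4142 in the 6 High2 libraries and 3936, 4811 and 6199 in the 6 Low1 libraries. All but 1 of the High2 libraries lay below every Low1 library, and the log2 difference was -0.44 (standard error 0.11, limma unadjusted p = 0.000311, adjusted p = 0.156). The predicted cluster chr6:29842000-29853219 had 1807, 2159.7 and 2819 in High2 and 2754, 3864 and 5209.7 in Low1, a log2 difference of -0.79 (standard error 0.19), and a near copy of it on an alternative haplotype of chromosome 6 had the same difference to 2 decimals. The predicted cluster chr9:15543003-15555996 had 730.7, 930.3 and 1166 in High2 and 1079, 1666 and 2169.9 in Low1, a log2 difference of -0.79 (standard error 0.20). In both of these 5 of the 6 High2 libraries lay below every Low1 library. The database cluster chr14:13384000-13389778 had 1286, 1727 and 2065 in High2 and 1810.1, 2644 and 3608 in Low1, a log2 difference of -0.68, with 4 High2 libraries below all of Low1.

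The other 5 of the 10 leading lower clusters were chr2:8206091-8220020, chr14:12939021-12949958, chr18:16363000-16370764, chr4:41646063-41653819 and chr4:27056031-27069027, with log2 differences of -0.70, -0.79, -0.51, -0.85 and -0.84. In each, 4 or 5 of the 6 High2 libraries lay below all 6 Low1 libraries. Each kept its sign when any High2 or Low1 library was left out, within -0.995 to -0.440. With only the libraries whose public field gives the line and period of the prefix (5 Lb libraries, all labelled Low2, and 4 La libraries labelled Low1), limma over all groups called 41 clusters, all lower in High2. All 10 leading lower clusters were among them, with adjusted p between 0.0226 and 0.0372, and 10 of the 41 were also among the 55 of the fit on High2 and Low1 alone. The 10 had been ranked on libraries that include these, so their calls here were favoured in advance. The La libraries kept were Low1 libraries 4, 5, 7 and 10, and the shallow Low2 library 3 (5983071 piRNA cluster reads) was left out.

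**Figure D2:**
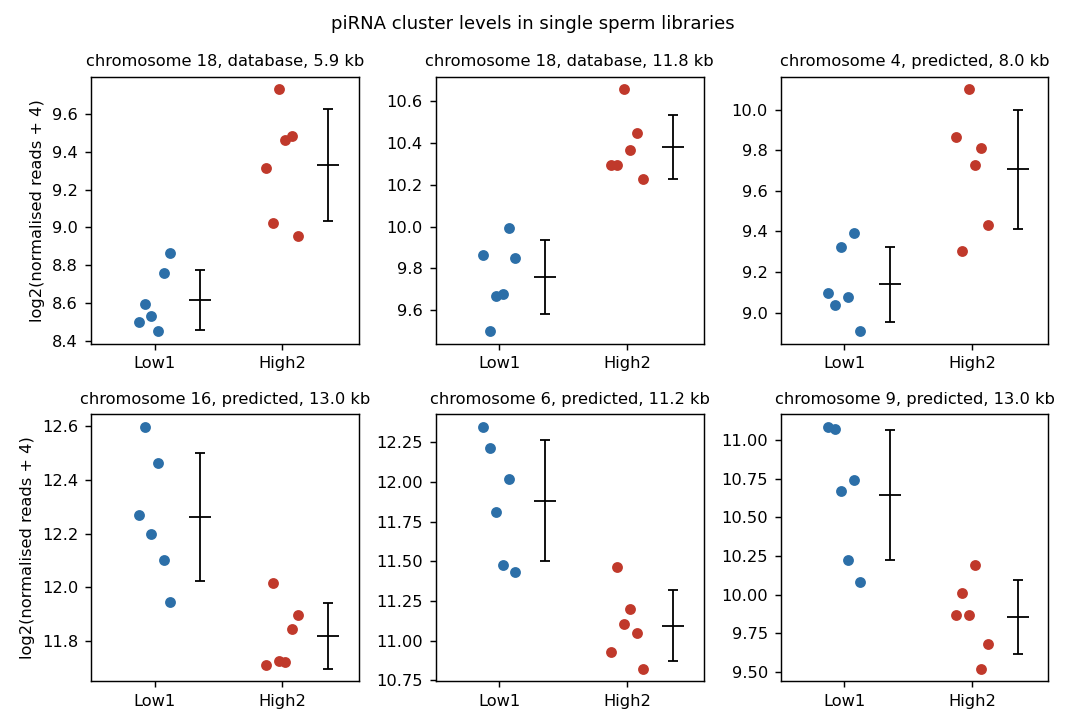
Level of 6 piRNA clusters in each sperm library, as log2 of normalised reads plus 4, for the 6 Low1 (blue) and 6 High2 (red) libraries, with the mean and SD of each group beside it. The upper row shows clusters with higher means in High2, where the libraries of the 2 chromosome 18 clusters do not overlap, and the lower row shows clusters with lower means.

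Among the 10 clusters with the smallest p and higher means in High2, 5 were database clusters of chromosome 18. The cluster chr18:33101002-33106880 had lowest, median and highest normalised reads of 492, 667 and 847 in High2 and 345, 374 and 461 in Low1. The groups did not overlap, and the log2 difference was 0.71 (standard error 0.22, limma unadjusted p = 0.00314, adjusted p = 0.174). The cluster chr18:33561008-33572830 had 1194, 1283 and 1609.7 in High2 and 719.5, 867 and 1014 in Low1, again without overlap, a log2 difference of 0.62 (standard error 0.22). For chr18:33974002-33981018, chr18:32561068-32568584 and chr18:32777075-32792025 the log2 differences were 0.50, 0.67 and 0.46, with 4, 5 and 5 High2 libraries above all of Low1.

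Outside chromosome 18, the predicted cluster chr4:60877023-60885024 had 627, 869.9 and 1094 normalised reads in High2 and 476, 540.0 and 668 in Low1, with 5 High2 libraries above all of Low1 (log2 difference 0.57, standard error 0.15, limma unadjusted p = 0.00113, adjusted p = 0.156). The predicted cluster chr22:13797593-13804958 had medians of 1082 in High2 and 486 in Low1 (log2 difference 0.89). The database cluster chr19:16906265-16910931 had medians of 195 and 93.1 (log2 difference 0.92), and the predicted cluster chr12:43771013-43778027 had 264 and 129 (log2 difference 0.98). In these the groups overlapped in 1 or 2 High2 libraries. The database cluster chr12:14899002-14913024, which the study also names, had 1224, 1790.5 and 2325 in High2 and 967, 1206 and 1783 in Low1, with 3 High2 libraries above all of Low1 (log2 difference 0.51, standard error 0.16, limma unadjusted p = 0.00427). With only the 5 Lb libraries labelled Low2 and the 4 La libraries labelled Low1, no higher cluster was called, and these 10 had log2 differences from 0.34 to 0.79.

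The clusters of chromosome 18 were then split by source, a description chosen after seeing the data. Several of them were among the higher clusters with the smallest p, so its counts of passing higher clusters were favoured in advance. Over all 1434 clusters 4.18% passed 0.05 before adjustment as higher and 9.9% as lower, and counts by source over the genome are given below. Of its 41 database clusters 33 had higher means in High2 (median log2 difference 0.26), with 8 higher and 2 lower passing 0.05 before adjustment. Of its 65 predicted clusters, which hold 58 distinct sets of values, 15 had higher means (median -0.13), with 1 higher and 13 lower passing. The median level was 1168 normalised reads for the database and 2031 for the predicted clusters. By the study's methods, predicted clusters were called from the pooled reads of its own sperm libraries, and database clusters were downloaded. Both kinds lie in the same stretch, and some of them overlap in position. Between 32 and 34 Mb, 22 of 27 database clusters were higher (median 0.38) and 13 of 17 predicted clusters were lower (median -0.13). By library, the median deviation of the database clusters from the mean of the 12 libraries was 0.01 to 0.26 in High2 and -0.29 to -0.02 in Low1. In the High-first line their median difference, High1 minus Low2, was 0.06.

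**Figure D3:**
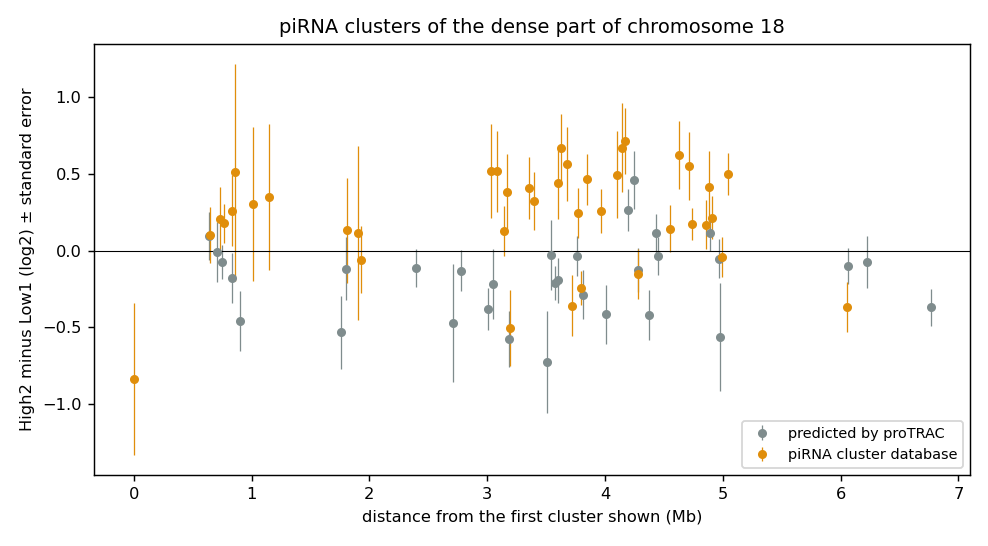
Log2 difference (High2 minus Low1) with its standard error for piRNA clusters of the dense part of chromosome 18, against distance from the first cluster shown in Mb. Database clusters (orange) lie mostly above 0 and predicted clusters (grey) mostly below it, with medians of 0.38 and -0.13 between 32 and 34 Mb.

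Across the genome the difference varied with the source of a cluster. Predicted clusters had been called from the study's own pooled reads and database clusters had not. The part of this choice in the difference by source was not tested. Of 532 database clusters 359 had higher means in High2 (median log2 difference 0.13), with 37 higher and 23 lower passing 0.05 before adjustment. Of 722 single-strand predicted clusters 311 were higher (median -0.05, 20 higher and 94 lower passing), and of 180 two-strand predicted clusters 70 were higher (median -0.10, 3 higher and 25 lower passing). Over all 1434 clusters 740 were higher, with a median of 0.01, and 4.18% passed as higher and 9.9% as lower. Chromosome 4 held 309 clusters with a median of 0.03, of which 10 higher and 27 lower passed. Its 158 database clusters had a median of 0.09 and its 151 predicted clusters one of -0.03. Medians of the chromosomes ran from -0.10 on chromosome 7, where 14 of 66 clusters passed as lower, to 0.11 on chromosome 2.

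The difference also varied with level. After seeing the data, clusters were divided into quintiles by their mean level in the High1 and Low2 libraries, which are in neither group compared. In the lowest quintile 224 of 287 clusters had higher means in High2 (median log2 difference 0.21, with 30 higher and 2 lower passing 0.05 before adjustment). The medians of the next quintiles were 0.08, -0.0039 and -0.07. In the highest quintile 209 of 287 clusters had lower means (median -0.20, with 2 higher and 52 lower passing). In the High-first line the medians of the lowest and highest quintiles, High1 minus Low2, were 0.10 and -0.03. Within the lowest quintile the median was 0.25 for 146 database and 0.15 for the predicted clusters, and within the highest quintile it was -0.12 for 101 database and -0.23 for 186 predicted clusters. On chromosome 18, 15 of 15 clusters of the lowest quintile had higher means, and 24 of 31 of the highest quintile had lower means. The part of level in the split of chromosome 18 by source was not tested.

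**Figure D4:**
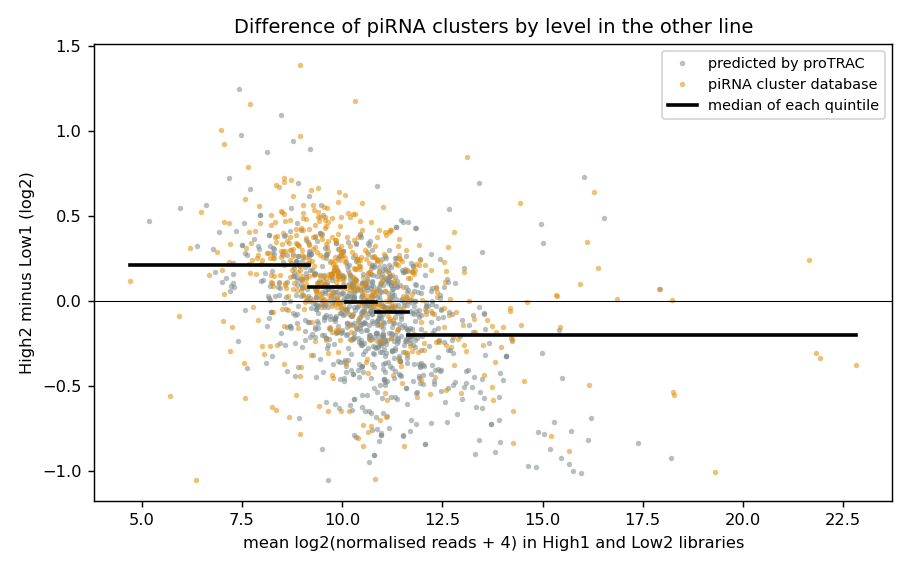
Log2 difference (High2 minus Low1) of the 1434 piRNA clusters against their mean level in the High1 and Low2 libraries, in log2 of normalised reads plus 4, with the median of each quintile as a black line. The medians step down from 0.21 in the lowest quintile to -0.20 in the highest.

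Single libraries took part unequally. In the lowest quintile the median deviation from the mean of the 12 libraries was 0.09 to 0.17 in 5 High2 libraries, -0.14 in High2 library 6 and -0.25 to -0.02 in the Low1 libraries. In the highest quintile it was -0.15 to -0.02 in High2 and 0.0033 to 0.18 in Low1, so the groups did not overlap there. Within a cluster the deviations of the 12 libraries balance out. The opposite average courses of High2 and Low1 are therefore not separate observations. Among Low1, libraries 4 and 5 lay furthest from 0 in both quintiles. Total piRNA reads overlapped between the groups, and the part of depth, pool or normalisation in this pattern was not tested.

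**Figure D5:**
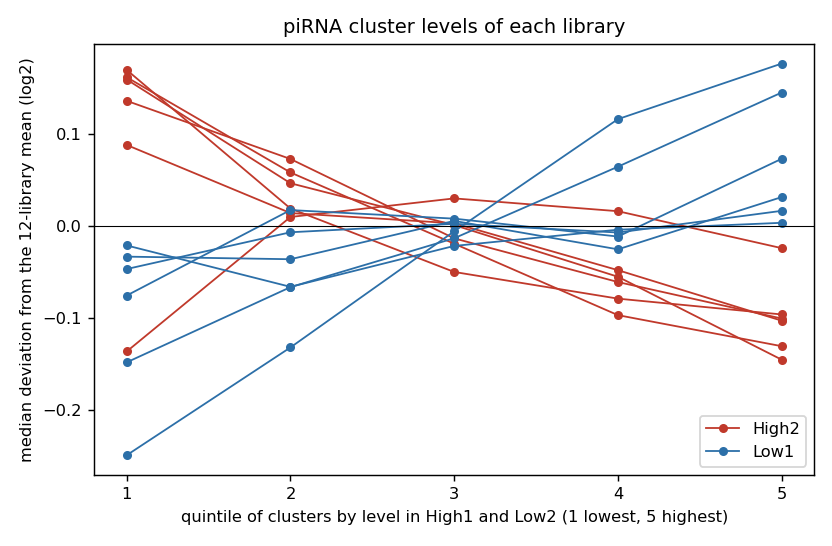
Median deviation of each library from the mean of the 12 libraries, in log2, for the 5 quintiles of piRNA clusters ordered by their level in High1 and Low2. High2 libraries (red) lie lower in the highest quintile than in the lowest, except library 6, and all Low1 libraries (blue) lie higher. Deviations are from a common mean, so the opposite average courses of the groups are not separate observations.

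The most abundant clusters varied widely. The top 10 clusters of a library took 67.6 to 86.5% of reads in High2 and 72.0 to 85.7% in Low1. A database cluster at the start of chromosome 7, chr7:4067-8848, had medians of 3036382 and 4274345 normalised reads in High2 and Low1 (log2 difference -0.33, standard error 0.64). Those of chr4:55793547-55813463 were 4899529.5 and 6292942 (log2 difference -0.38, standard error 0.69), and chr4:77550078-77563945 had a log2 difference of -0.30 (standard error 0.57). Of 2 clusters on unplaced scaffolds, the one with the highest mean of all clusters had a log2 difference of 0.24 (standard error 1.05) and the other -1.004 (standard error 0.57, limma adjusted p = 0.430). None of these 5 passed 0.05 before adjustment.

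Of the 6 clusters named in the study's text, 4 were outside the leading ranks. The study reports more differentially expressed clusters between the groups it calls High2 and Low1 than elsewhere, mostly downregulated. There it names chr12:14899002-14913024 as most upregulated, and chr16:14845000-14858022 and chr11:37007002-37018889 among the most downregulated. With groups by prefix their log2 differences were 0.51, -0.44 and -0.37, of the signs it names. None of them passed adjustment in the fit over all groups. The study names chr1:57940016-57946585 for Low1 against High1, not for High2 against Low1. It names chr4:52720448-52740603 and chr22:32643430-32648896 for sperm of High competition males. The cluster chr1:57940016-57946585 had 14.4, 98.4 and 202.9 normalised reads in High2 and 14.7, 30.3 and 80.9 in Low1 (log2 difference 1.25, standard error 0.77). The groups overlapped, with 3 High2 libraries above all of Low1 and 1 below. The medians of chr4:52720448-52740603 were 177982 and 123429 (log2 difference 0.64), those of chr11:37007002-37018889 were 1883 and 2646 (-0.37), and those of chr22:32643430-32648896 were 553 and 788 (-0.64). Of these 4, only chr11:37007002-37018889 passed 0.05 before adjustment (limma unadjusted p = 0.0269, adjusted p = 0.290).

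Between the lines, the limma interaction called 0 of 1434 clusters (smallest adjusted p = 0.739), and 85 (5.93%) passed 0.05 before adjustment. The chromosome 18 clusters chr18:33974002-33981018 and chr18:33101002-33106880 had log2 differences of 0.50 and 0.71 in the Low-first line and of -0.13 and -0.25 in the High-first line (limma unadjusted p = 0.00326 and 0.00451). For the lower clusters chr16:14845000-14858022 and chr9:15543003-15555996 the High-first line had -0.06 and -0.01 (limma unadjusted p = 0.0179 and 0.01001). All of these clusters were named for a small p in High2 against Low1. The interaction uses the same High2 and Low1 values, so small p-values for them were favoured in advance.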

How the data were processed

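Small RNA of sperm was sequenced per male and period. According to the study's methods, the authors trimmed reads, aligned them without mismatches to zebrafish miRNAs and to piRNA clusters from a database or predicted by proTRAC, and normalised with DESeq2. The deposited tables hold log2 values of reads divided by a size factor plus 4. All 13494 miRNA and 34416 piRNA values gave whole reads within 0.05 reads once this was undone. The contrast High2 minus Low1 was tested two-sided on these log2 values by moderated linear models with a mean-variance trend (limma, version 3.58.1; R, version 4.3.3), all 4 groups entering the fit, with Benjamini-Hochberg adjustment over all features and a threshold of 0.05. No feature was filtered out. The scripts were tested on simulated reads in which the spread of a feature was the same in all 4 groups. The unequal spread of the cluster groups was not simulated. The negative binomial model of the recovered reads was an alternative to limma. Tables and plots used Python 3.11.15, numpy 2.4.6, pandas 2.3.3, scipy 1.17.1 and matplotlib 3.10.9.

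Libraries were grouped by title prefix, and not by the public treatment field. Summed levels count entries with identical values once. The members and lists were chosen with earlier results of these data known. Named features were the 10 smallest unadjusted p in each direction, with identical entries counted once. The 10 miRNAs and 5 clusters with the highest means were named too. So were the miRNA the study names for the groups it calls High2 and Low1, and the 6 clusters named in its text, some for other comparisons. Features outside this rule, the split of chromosome 18 by source, the quintiles by level and the fits listed as added were chosen after their values were seen. Where nothing says that libraries are separate animals, p-values measure the spread between libraries. Alternatives were another scaling, pseudocount, filter, test, choice of libraries, pool and replicate block.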

Additional observations from a re-analysis of the deposited data

Results flagged for a closer look

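In 6 of 128 groups tested a single library stood apart from the rest of its group, and chance gives about 1 in 20 such groups. Levels are log2 of normalised reads plus 4. Low1 library 3, which is shallow, was highest for dre-let-7b at 15.36 and lowest for dre-miR-210-5p at 5.88. Low1 library 4 was highest for dre-miR-126b-3p at 4.44. High2 library 7 was highest for dre-miR-457a at 9.20 and for dre-miR-457b-5p at 5.89. High2 library 1 was lowest for dre-miR-430a-3p at 2, which is 0 reads.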

How the results depend on the processing

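No miRNA and no piRNA cluster was called with the 4 groups in one fit, and this held with libraries centred, no trend, pseudocount 1, the lowest 25% of features left out, identical entries once, limma-voom, pool as a factor and each High2 or Low1 library left out. About 40 settings were run for the clusters. Those that called any were a fit on High2 and Low1 alone (55), libraries whose public field gives the line and period of the prefix (41), the negative binomial model (48, or 328 on High2 and Low1 alone) and, chosen after seeing the data, without Low2 libraries 2 and 3 and High1 library 1 (68, but 0 without only the Low2 pair) and High2 and Low1 alone with libraries centred (43, of which 25 higher, against 22 of the 55). On High2 and Low1 alone, each library left out in turn (also chosen after seeing the data) gave 0 for 4 libraries, and 1, 3, 4, 20, 64, 117, 148 and 172 for High2 library 10, Low1 library 4, High2 libraries 8 and 2, Low1 libraries 9 and 6, High2 library 6 and Low1 library 7. With libraries centred, clusters passing 0.05 before adjustment were 89 higher and 112 lower, against 60 higher of 202. The causes were not tested.

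Clusters passing 0.05 before adjustment numbered 424 on High2 and Low1 alone, 431 with libraries centred there (240 higher and 191 lower, against 194 and 230 uncentred), 518 by the negative binomial model there and 341 without the 3 libraries of the other line. Each library left out in turn gave 131 to 244 over all groups. On High2 and Low1 alone it gave 319, 340.0, 341, 344, 362, 365, 382, 414, 416, 420.0, 464 and 470.0. For miRNAs the number was 11 with pool as a factor, 12 by limma-voom, 32 by the negative binomial model on High2 and Low1 alone and 10 to 27 with each library left out. The interaction called 0 miRNAs, or 0 to 9 with each library left out (9 without Low1 library 3).

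Same-numbered High2 and Low1 libraries did not deviate together (correlations from -0.37 to 0.27 over 10 miRNA pairs and from -0.31 to -0.056 over 4 piRNA pairs). No source says that this number names the male, so these need not be pairs from the same male. In its principal component analyses the paper reports a substantial male effect for miRNAs and clear clustering by male for piRNAs. For piRNAs it also reports some clustering by treatment on the first component, with Low partly separated from High. With a replicate block 0 features were called, and 18 miRNAs and 184 clusters (88 higher, 96 lower) passed 0.05 before adjustment. In the piRNA table High2 libraries 2 and 8 and Low1 libraries 4 and 5 have no same-numbered partner in the other group. For them the block sets no High2 library against a Low1 library.

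Among named features, signs changed only where the difference was smaller than its standard error. With pool as a factor the log2 difference was -0.089 for dre-let-7g, -0.24 for dre-miR-10b-5p, 0.032 for dre-miR-100-5p and -0.0078 for dre-miR-25-3p. With such public fields it was 0.14 for dre-miR-100-5p and 0.071 for dre-miR-22a-3p. By limma-voom it was 0.0099 for dre-miR-100-5p and 0.0013 for dre-miR-92a-3p, and by both negative binomial fits 0.024 for dre-miR-92a-3p. Without the shallow Low1 libraries (equally, at 500000 reads or more) it was 0.13 for dre-miR-92a-3p, 0.00053 for dre-miR-100-5p and, for dre-miR-10b-5p, -0.00024. With each library left out it ran from -0.0026 to 0.15 for dre-let-7g, from -0.060 to 0.068 for dre-miR-100-5p, from -0.020 to 0.11 for dre-miR-10b-5p, from -0.040 to 0.19 for dre-miR-25-3p, from -0.18 to 0.10 for dre-miR-92a-3p and from -0.18 to 0.91 for the scaffold cluster NW_003336940.1:509-10420 (-0.15 without High2 library 10 on High2 and Low1 alone). Depth limited the scarce miRNAs of Low1 libraries 1 and 3.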
